A study of Mus musculus with 15 samples.

Results

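The genotype comparison among mice that drank nicotine set 3 libraries from conditional double knockout mice (DKO nicotine) against 4 libraries from wildtype C57BL6/J mice (WT nicotine). Its members were the 12728 genes with a level of at least 1 FPKM in 3 or more of the 15 libraries of the series, out of 21878 rows in each table. With the same minimum applied to the 7 nicotine libraries alone, 12482 genes were left. FPKM is a read count scaled by the length of the gene and the depth of the library, so levels can be set side by side between genes. All mice were 8 months old at the start. They drank nicotine at 100 µg/ml or plain water for 3 months, and the prefrontal forebrain cortex was collected after behaviour tests. The remaining 8 libraries were 4 DKO and 4 WT libraries from water-drinking mice. Unless water is named, DKO and WT stand for the nicotine groups. The knockout is conditional, and the promoter that drives the recombinase, the strain background of the knockout, the sex of the mice and whether each library is a separate mouse were not given in the labels used here. The p-values therefore measure the spread between these libraries.

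Gamma-secretase is a membrane protease that cuts Notch receptors, the amyloid precursor protein and other type I membrane proteins. Loss of its catalytic subunits in forebrain neurons of adult mice is known for loss of synapses and neurons with age and for activation of microglia and astrocytes. Microglia are the macrophages of the brain, and around damaged neurons and plaques they take on a state with high levels of lysosomal, lipid-handling and antigen-presenting genes. Nicotine opens nicotinic acetylcholine receptors, which are pentameric cation channels on cortical axon terminals and interneurons. The comparison asks which genes differ between the genotypes when both groups have had the drug.

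Changes are given as DKO minus WT on the scale log2(FPKM + 1), which understates the change of genes at low levels, with the standard error (SE) of limma. A gene was said to rise or fall where the p-value of limma, adjusted by Benjamini-Hochberg over all 12728 genes, was under 0.05. In the lists below with no limma call in a direction, voom on recovered reads gave no call there either, and limma's unadjusted p was under 0.05 for 0 genes in that direction, or for 1 among the cytokine genes. Psen2, a targeted gene and a catalytic subunit of gamma-secretase (gene 19165, chromosome 1, 180227004 to 180263467, GRCm38.p6), was at 1.76, 1.36 and 1.59 FPKM in the DKO libraries and 6.45, 6.71, 7.05 and 5.71 FPKM in the WT libraries. All 3 DKO values were below all 4 WT values (log2 change -1.54, SE 0.09, adjusted p = 1.45e-09). The labels name a double knockout, and Psen2 checks only part of it: of the 7 tested genes of the list of targeted genes and gamma-secretase subunits, Psen2 and Ncstn fell and the other 5 were not called. The 4 Y-linked genes measured did not follow the genotype. Ddx3y, an RNA helicase of the Y chromosome, was at 12.9, 0.0989 and 13.1 FPKM in the DKO libraries and 0.0650, 0.0461, 0.0228 and 0.0441 FPKM in the WT libraries. DKO replicates 1 and 3 therefore expressed it and DKO replicate 2 and all 4 WT libraries were near 0, while all 8 water libraries lay between 9.96 and 13.01 FPKM. Eif2s3x, whose partner on the Y chromosome is Eif2s3y, was at 16.03, 23.9 and 16.4 FPKM in the DKO libraries and 25.8, 26.3, 26.3 and 26.2 FPKM in the WT libraries, so DKO replicate 2 again stood with the WT libraries. The rise of the Y-linked genes and the falls of Eif2s3x (log2 change -0.48, SE 0.09, adjusted p = 7.28e-04) and of the X-linked helicase Ddx3x (log2 change -0.21, SE 0.06, adjusted p = 0.00979) go with this split, and with DKO replicate 2 alone none of them was called. Among the nicotine libraries only DKO replicate 2 against WT compares libraries that are alike in these genes. Brackets after the counts of a list, or the next sentences, give the settings that moved a count by more than 1.5 times, for counts that reach 3: rescaling by median-of-ratios size factors, leaving out a library, and DKO replicate 2 alone against WT, which with a single DKO library passes the test for fewer genes overall.

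**Figure D1:**
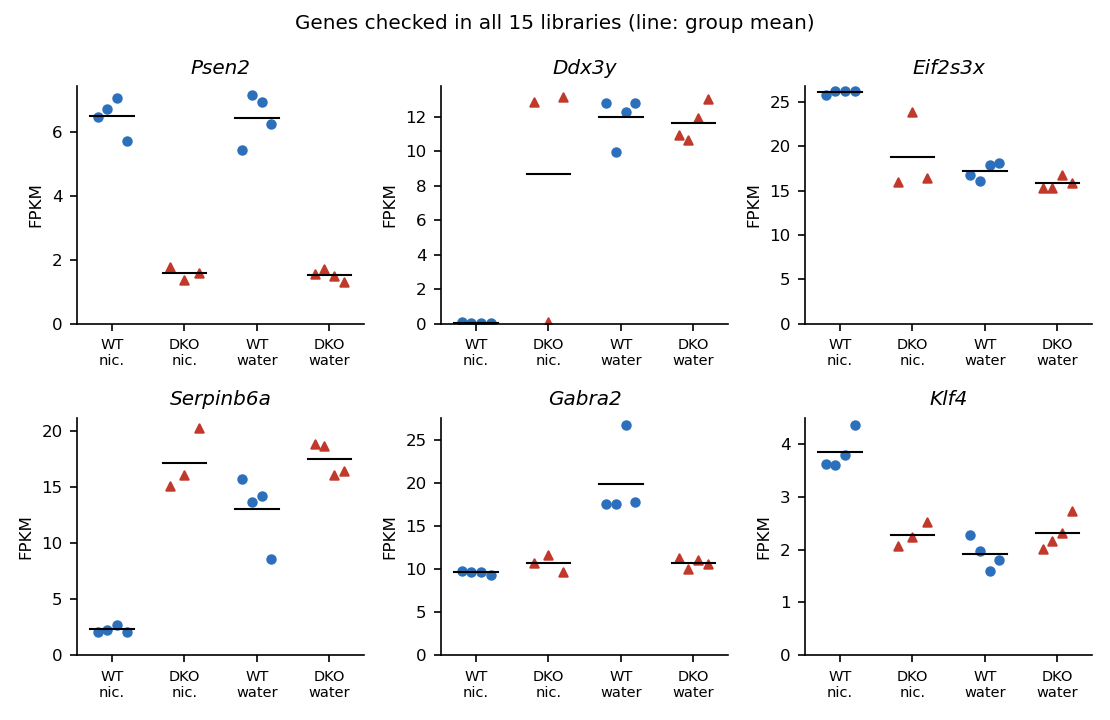
FPKM of 6 genes in each of the 15 libraries by group (points are libraries, lines are group means, linear axes from 0). Psen2 separated the genotypes in both drinking groups, Ddx3y was near 0 in all 4 WT nicotine libraries and in DKO nicotine replicate 2, and Serpinb6a was low in the WT nicotine group alone.

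Of the 12728 genes, 4538 (35.7%) differed between DKO and WT. More rose (3133, 24.6%) than fell (1405, 11.0%). The changes that reached 2-fold on the log2(FPKM + 1) scale were nearly all rises, with 162 genes (1.27%) at least doubled and 12 (0.0943%) at least halved. In 4795 genes (37.7%) the 3 DKO and 4 WT libraries did not overlap, and 3942 of these were among the calls. The share of calls that were rises depended on the scaling: the median change over all genes was 0.06, and after rescaling by median-of-ratios size factors 2142 genes rose and 2217 fell, so that rises made up 49.1% of calls and not 69.0%. Small rises of broad gene classes are therefore read with that shift in view. Against the 4 WT libraries, DKO replicate 2 alone gave 1410 rises and 670 falls, replicate 1 alone 1807 and 845, and replicate 3 alone 2366 and 1083. Of the 4538 calls, 4528 had the same sign in replicate 2 alone, and of the 162 doubled genes 157 were called higher in it. Depth was similar, with 17896575 to 18766081 reads in genes in DKO and 17901284 to 19049388 in WT, and 1 FPKM of the median gene stood for 67.9 reads.

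**Figure D2:**
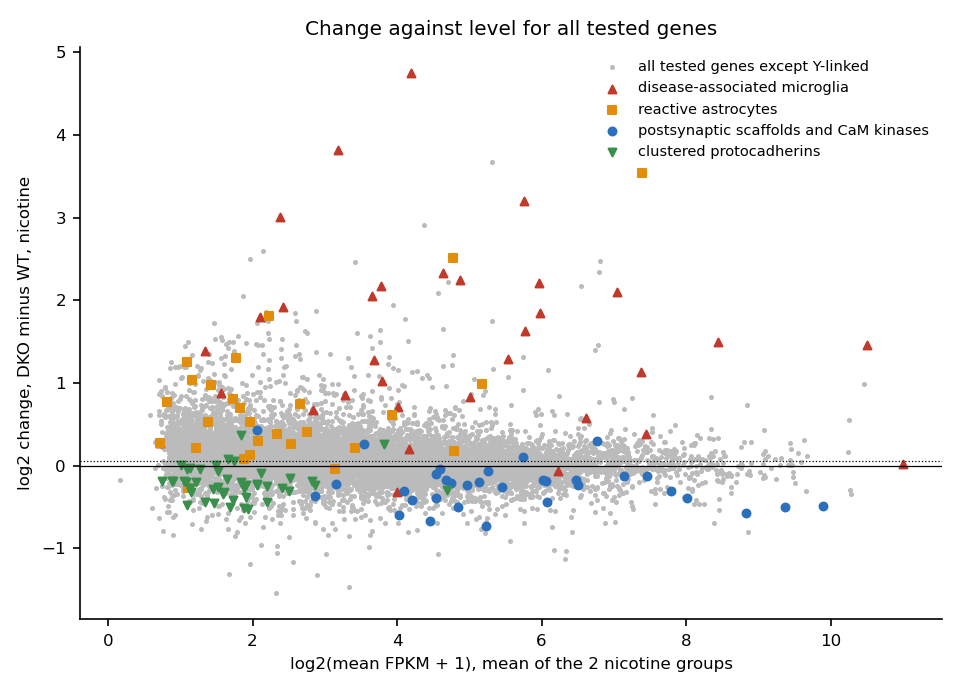
Log2 change (DKO minus WT, nicotine) against mean level for the tested genes without the Y-linked ones (grey), with 4 gene lists in colour. The solid line is 0 and the dotted line the median of all genes, 0.06. Microglial and reactive astrocyte genes lie above the cloud, and postsynaptic and protocadherin genes lie mostly below 0.

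The genes that rose most were those of activated microglia and astrocytes. Cst7, which encodes cystatin F, an inhibitor of lysosomal cysteine proteases, was at 33.2, 44.05 and 25.5 FPKM in the DKO libraries and 0.266, 0.567, 0.281 and 0.0542 FPKM in the WT libraries. Its lowest DKO library was far above its highest WT library (log2 change 4.75, SE 0.20, adjusted p = 1.90e-11). Its change was the largest outside the Y chromosome, whose 4 tested genes had a median log2 change of 2.09. Clec7a, the receptor Dectin-1 for fungal beta-glucans, was at 15.7, 17.1 and 15.2 FPKM in the DKO libraries and 0.171, 0.313, 0.207 and 0.125 FPKM in the WT libraries (log2 change 3.82, SE 0.09, adjusted p = 4.17e-14). Itgax, the integrin CD11c, went from values of at most 0.157 FPKM in WT to 8.77, 10.7 and 5.49 FPKM in DKO (log2 change 3.01, SE 0.15, adjusted p = 2.92e-10). All 3 genes were under 1 FPKM in every WT library and well above it in every DKO library. Lyz2, the lysozyme of macrophages, was at 111, 87.5 and 90.97 FPKM in the DKO libraries and 10.9, 10.2, 12.2 and 6.01 FPKM in the WT libraries (log2 change 3.20, SE 0.15, adjusted p = 1.10e-10). Cd68, a lysosomal membrane protein of macrophages, rose from 7.296 ± 1.101 to 40.7 ± 4.03 FPKM (log2 change 2.33, SE 0.09, adjusted p = 1.34e-11). Ccl3, a chemokine that attracts monocytes, was at 5.87, 7.28 and 6.51 FPKM in the DKO libraries and 0.266, 0.566, 0.0701 and 0.135 FPKM in the WT libraries (log2 change 2.60, SE 0.18, adjusted p = 1.21e-08). The inhibitory receptor Lilrb4a reached 7.33, 4.58 and 5.03 FPKM in DKO against 0.140, 0.186, 0.147 and 0.142 in WT (log2 change 2.50, SE 0.12, adjusted p = 1.78e-10). In none of these genes did the groups overlap, but the rule that named the largest rises and falls took only calls without overlap.

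**Figure D3:**
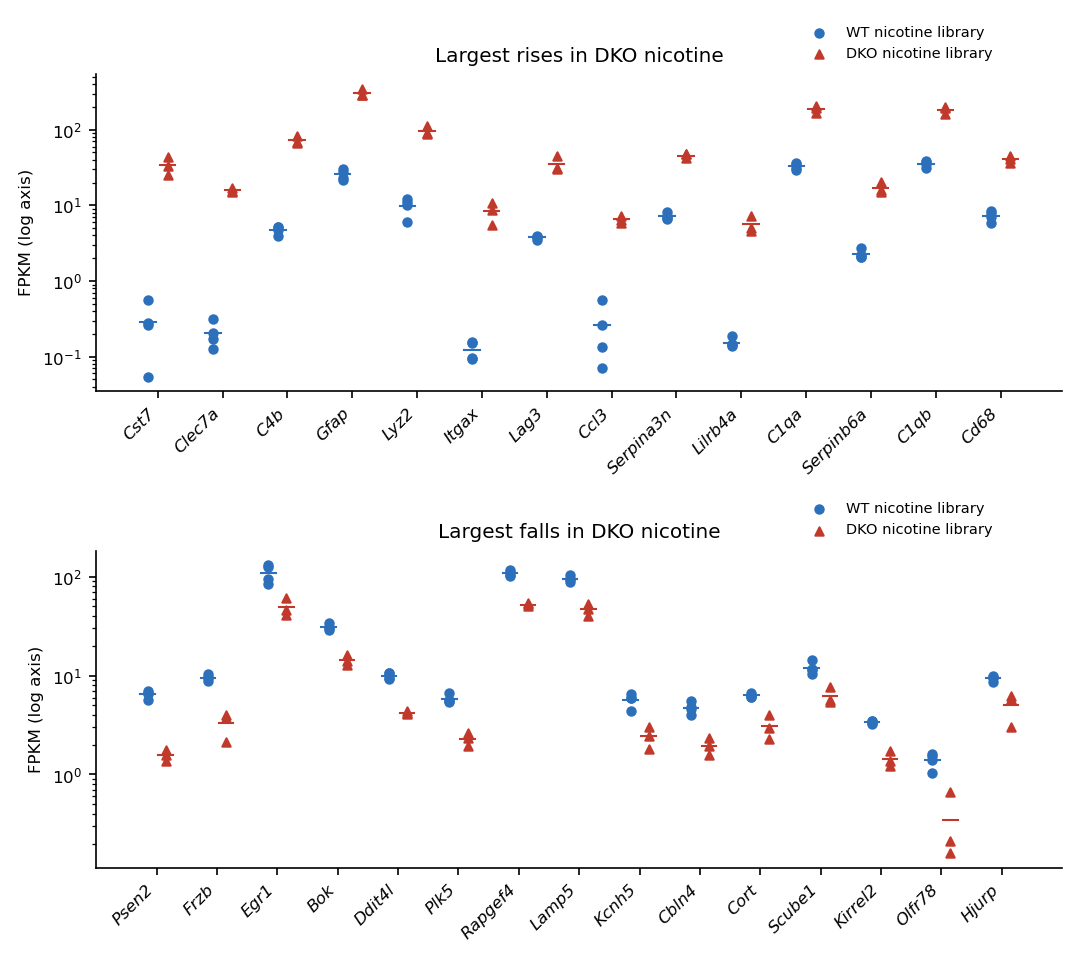
FPKM on a log axis of the genes with the largest rises (top) and falls (bottom), one point per library (circles WT nicotine, triangles DKO nicotine), with group means as lines. The genes were picked among calls without overlap, so no gene shown has overlapping groups. Cst7 spans 25.5 to 44.05 FPKM in DKO and is at most 0.567 in WT.

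Among 33 genes of the disease-associated microglial state, 29 rose and 1 fell, with a median log2 change of 1.39 against 0.06 over all genes. The summed level of the list was 6176 to 6544 FPKM in DKO and 3536 to 3831 FPKM in WT. Part of that sum came from Apoe, the lipid carrier of the brain, which rose from 774 ± 12.3 to 2137 ± 89.7 FPKM (log2 change 1.46, SE 0.06, adjusted p = 2.49e-11). The protease Ctss, cathepsin S, rose from 49.2 ± 4.85 to 214 ± 17.2 FPKM (log2 change 2.10). Cd9 and Ctsz, a tetraspanin and a lysosomal carboxypeptidase, changed by 1.85 and 1.63 on the log2 scale. The single member that fell was Lgi2, a secreted synaptic protein (log2 change -0.32, SE 0.06, adjusted p = 3.51e-04). With DKO replicate 2 alone, 29 members rose and 1 fell.

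Markers of homeostatic microglia did not fall as a group. Of 16 such genes 11 rose and 2 fell (median log2 change 0.83). Cx3cr1, the fractalkine receptor, was at 28.9, 40.2 and 42.4 FPKM in the DKO libraries and 16.1, 15.3, 15.3 and 14.3 FPKM in the WT libraries. Csf1r, the growth factor receptor that microglia need to survive, was at 32.5, 50.95 and 40.4 FPKM in the DKO libraries and 23.9, 19.5, 22.3 and 21.9 FPKM in the WT libraries (log2 change 0.87, SE 0.10, adjusted p = 6.95e-06). DKO replicate 1 was the lowest of the 3 for both receptors and still above every WT library. The purinergic receptor P2ry12 was at 14.95, 16.3 and 17.6 FPKM in the DKO libraries and 16.2, 15.6, 14.3 and 14.4 FPKM in the WT libraries, with overlapping groups (95% interval of the log2 change -0.03 to 0.23), and Tmem119 had an interval of 0.03 to 0.38. Tmem119 was not called in the fit of 15 libraries. Limma called it with the 7 nicotine libraries alone (adjusted p = 0.0445) and without WT replicate 1 (adjusted p = 0.0426). The 2 that fell were Selplg (log2 change -0.29, SE 0.07, adjusted p = 0.00492), a ligand of selectins, and Slc2a5 (log2 change -0.42, SE 0.11, adjusted p = 0.00655), a fructose transporter, and with DKO replicate 2 alone neither was called. In bulk tissue a change in the number of cells of a type and a change in RNA per cell cannot be told apart. Of the genes for microglial lineage factors and division, 9 of 14 rose. They included the transcription factors Irf8 (1.53 on the log2 scale), Spi1, which encodes PU.1 (0.95), and Cebpa (0.91), and the CSF1 receptor ligand Csf1 (0.86). Mef2c, a factor of neurons as well as microglia, was the member that fell (log2 change -0.25, SE 0.04, adjusted p = 3.27e-04).

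Receptors through which phagocytes sense antibodies and microbial products rose in most cases. All 15 tested genes of Fc gamma receptors and their signalling rose, with a median of 0.92. Fcgr2b, the inhibitory receptor, was at 9.21, 11.4 and 11.2 FPKM in the DKO libraries and 2.14, 2.02, 2.47 and 2.04 FPKM in the WT libraries (log2 change 1.87, SE 0.08, adjusted p = 6.15e-11). Fcgr4, an activating receptor, was at 1.74, 2.13 and 1.33 FPKM in the DKO libraries and 0.252, 0.268, 0.133 and 0.0855 FPKM in the WT libraries (log2 change 1.20, SE 0.09, adjusted p = 5.79e-08). The tyrosine phosphatase Ptpn6, which damps these receptors, changed by 1.75, and the exchange factor Vav1 and the kinase Fgr by 0.92 and 1.03. Among toll-like receptors and their partners, 12 of 15 tested members rose and 0 fell, with a median log2 change of 0.95. Tlr2, which binds bacterial lipoproteins, was at 5.13, 5.21 and 4.32 FPKM in the DKO libraries and 0.479, 0.437, 0.415 and 0.331 FPKM in the WT libraries (log2 change 2.05, SE 0.09, adjusted p = 2.49e-11). Its co-receptor Cd14 changed by 1.60, the pair Cd180 and Ly86 by 1.77 and 2.09, and Unc93b1, which carries nucleic-acid sensing receptors to endosomes, by 1.43.

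The 6 subunits of the phagocyte NADPH oxidase, which makes superoxide, all rose. Among them the log2 changes were 1.64 for Cyba, 1.30 for Ncf1, 1.26 for Ncf4 and 0.94 for Cybb (SE 0.09 to 0.10). Cyba, a membrane subunit, was at 19.1, 21.7 and 17.8 FPKM in the DKO libraries and 4.703, 6.26, 5.84 and 5.56 FPKM in the WT libraries. Of the integrins, 10 of 14 rose. They included Itgb2, the beta chain of the complement receptors (log2 change 1.46, SE 0.12, adjusted p = 1.10e-07), and Itgb5 (log2 change 1.06, SE 0.09, adjusted p = 1.41e-07), while Itgav, the alpha chain of vitronectin receptors, fell (log2 change -0.17, SE 0.06, adjusted p = 0.0406; not called without DKO replicates 1, 2 or 3 or WT replicates 1, 2 or 3, adjusted p from 0.0502 to 0.121). Among immune checkpoint genes 10 of 12 tested members rose and 1 fell, with a median log2 change of 0.70. Lag3, a receptor that binds MHC class II, was at 30.5, 44.7 and 31.4 FPKM in the DKO libraries and 3.88, 3.88, 3.93 and 3.44 FPKM in the WT libraries (log2 change 2.91, SE 0.11, adjusted p = 5.58e-12). Cd86, a costimulatory ligand, and Pdcd1, the receptor PD-1, changed by 1.31 and 1.25. The member that fell was Cd47, a signal against phagocytosis that neurons carry, which was at 25.8, 26.3 and 25.96 FPKM in the DKO libraries and 40.4, 31.02, 33.9 and 35.2 FPKM in the WT libraries (log2 change -0.41, SE 0.09, adjusted p = 0.00202).

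Genes of antigen presentation rose in both classes. Of 16 class I and peptide loading genes 14 rose and none fell. The class I heavy chain H2-D1 was at 68.8, 84.8 and 73.3 FPKM in the DKO libraries and 30.1, 29.2, 32.3 and 26.96 FPKM in the WT libraries (log2 change 1.32, SE 0.07, adjusted p = 1.09e-09), and its light chain B2m, beta-2 microglobulin, at 214, 254 and 211 FPKM in the DKO libraries and 104, 114, 105 and 87.5 FPKM in the WT libraries (log2 change 1.13, SE 0.08, adjusted p = 1.99e-08). H2 class I genes are near-identical copies, so reads may be split among them. The log2 changes were 1.01 for Psmb8, 0.74 for Tapbp and 1.21 for H2-K1 (SE 0.06 to 0.11). All 6 class II genes that were tested rose. Cd74, the invariant chain, was at 12.6, 28.1 and 23.9 FPKM in the DKO libraries and 4.08, 4.03, 4.74 and 2.49 FPKM in the WT libraries (log2 change 2.17, SE 0.22, adjusted p = 9.14e-07). H2-Aa and H2-Ab1, the chains of the I-A molecule, changed by 1.85 and 1.46. Of 29 measured genes of blood and other immune cells, 19 were below the minimum level, and limma called 0 of the 10 tested. Hbb-bs, the beta globin of red cells, ranged from 85.2 to 89.5 FPKM in DKO and from 42.6 to 120.0 FPKM in WT.

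Complement genes rose in 14 of 18 cases and fell in none. C4b, which encodes complement component C4, was at 66.98, 69.8 and 81.99 FPKM in the DKO libraries and 5.22, 4.76, 5.22 and 3.905 FPKM in the WT libraries (log2 change 3.68, SE 0.11, adjusted p = 5.42e-13), with no overlap between the groups. C1qa, C1qb and C1qc, the 3 chains of the pattern-recognising subunit C1q, rose together. C1qa was at 205, 195 and 166 FPKM in the DKO libraries and 31.3, 35.6, 36.3 and 29.2 FPKM in the WT libraries (log2 change 2.47, SE 0.09, adjusted p = 5.58e-12), and C1qb and C1qc changed by 2.34 and 2.17. The receptor C3ar1 rose from 0.756 ± 0.103 to 4.205 ± 0.143 FPKM (log2 change 1.57). Chemokines and their receptors were mixed, with 9 of 16 rising and 3 falling. After Ccl3 the larger rises were in Ccl6 (1.92), Cxcl16 (1.56) and Ccl4 (1.50), and the falls were in Ackr1, a chemokine scavenger of venules (log2 change -0.76, SE 0.05, adjusted p = 9.98e-09), Cx3cl1, the neuronal ligand of Cx3cr1 (log2 change -0.28, SE 0.04, adjusted p = 1.18e-04), and Cxcl12 (log2 change -0.37, SE 0.09, adjusted p = 0.00297). Of 25 cytokine genes 21 rose and none fell. The log2 changes were 1.47 for Csf3r, 1.08 for Tgfb1, 0.79 for Csf2rb and 0.86 for Tgfbr1. In the TGF-beta pathway 13 of 33 tested members rose and 3 fell, with a median log2 change of 0.11 (8 rises and 5 falls after rescaling, 1 fall without DKO replicate 1, 5 falls without DKO replicate 2, 8 rises without DKO replicate 3, 7 rises and 0 falls in DKO replicate 2 alone). The ligand Tgfb1 rose from 3.17 ± 0.511 to 7.77 ± 0.770 FPKM, and the receptor Tgfbr2 changed by 0.96. The signal transducer Smad3 fell (log2 change -0.22, SE 0.06, adjusted p = 0.00861; not called without DKO replicate 1, adjusted p = 0.0582).

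**Figure D4:**
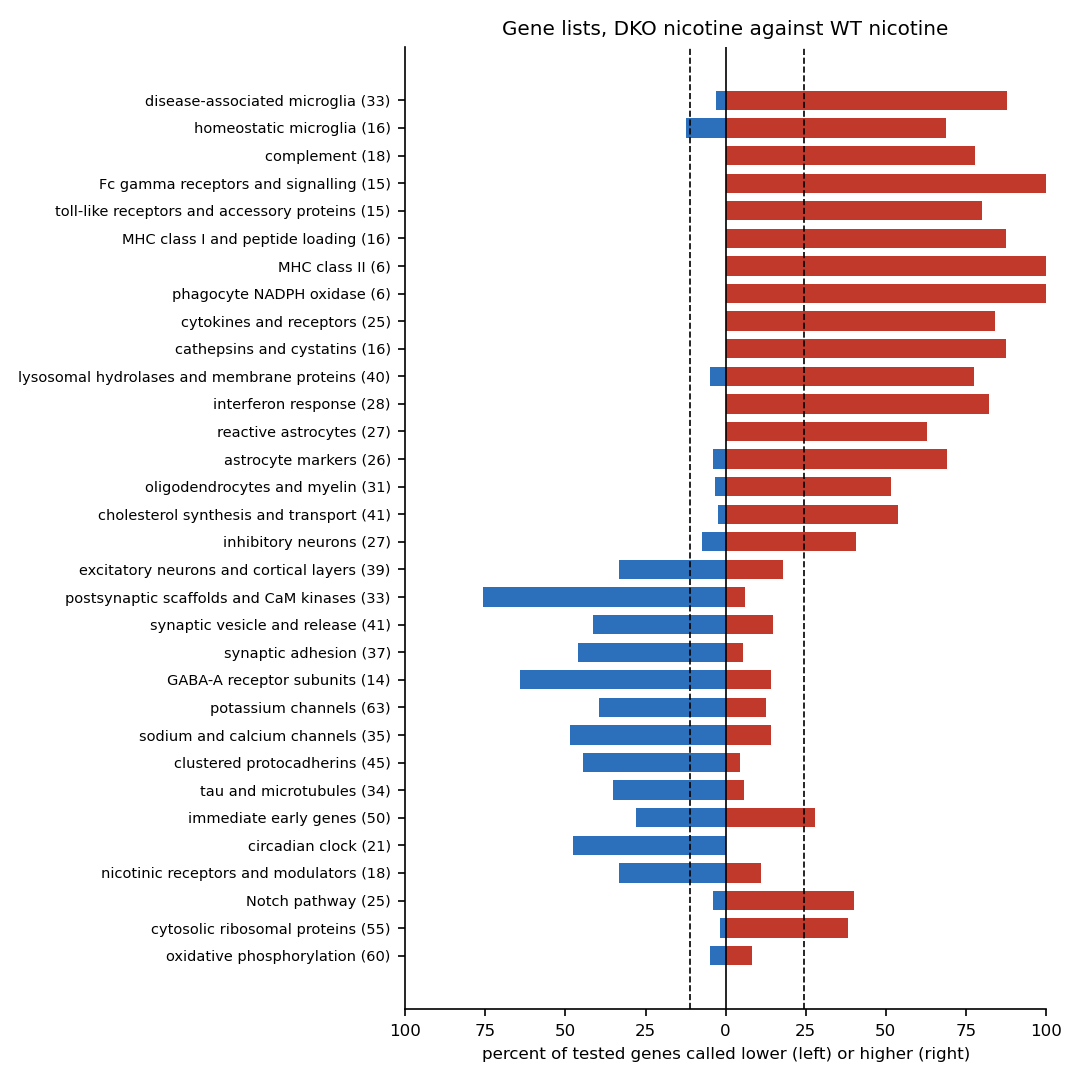
Percent of the tested genes of 32 lists that fell (left, blue) or rose (right, red) in DKO nicotine against WT nicotine, with the number tested in brackets. Dashed lines mark the shares over all genes, 11.0% lower and 24.6% higher; immune and glial lists reach furthest to the right and synaptic and channel lists to the left.

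Promoter sequences were compared because most genes of the microglial state and interferon response lists rose. The sequences, from RefSeq for GRCm38.p6, were the 250 bases before the annotated start of a gene and the first 50 after it, and 10173 of the 12728 tested genes had an entry. Each motif was searched as exact letters on both strands. GAGGAAGT, a core of the sites of PU.1, occurred in 15 of 122 promoters (12.3%) of the at least doubled genes. It occurred in 3.37% of the promoters of all tested genes, and in 0 of 73 promoters among the 100 called genes with the lowest log2 change. In the list of the disease-associated microglial state it occurred in 2 of 27 promoters (7.41%). The interferon response element, taken as a pair of GAAA blocks with any 2 bases between them, occurred in 13 of 24 promoters (54.2%) of the interferon response list and in 3.45% of those of all tested genes. The list was written from genes known to respond to interferon, and many are known for this element. Within it, 9 of the 13 genes with the element rose, and 10 of the 11 without it. TCACGTGA, the core of the element shared by lysosomal genes, occurred in 3 of 32 promoters (9.38%) of the lysosomal list and in 2.19% over all tested genes. TGACGTCA, the cAMP response element, occurred in 1 of 122 promoters (0.82%) of the at least doubled genes and in 3.57% over all tested genes. GCGGGGGCG, the element of EGR factors, occurred in 2 of 122 (1.64%) and in 6.81%. A match shows only that these letters are there.

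The 250 bases before the start of 4 genes that rose, picked after their values and matches were seen, are given 5′ to 3′ on the strand of the gene, with matches in capitals. Fcgr4 (chr1:171018676-171018925, plus strand) has the PU.1 core on the opposite strand 24 bases before the start and the interferon element 73 bases before it, and these matches do not overlap. Bst2 (chr8:71537473-71537722, minus strand), an interferon-induced restriction factor, has interferon elements that overlap each other. B2m (chr2:122147437-122147686, plus strand) has the interferon element 139 bases before the start. Cst7 (chr2:150570165-150570414, plus strand), with the largest change, holds neither motif in this window.
Fcgr4: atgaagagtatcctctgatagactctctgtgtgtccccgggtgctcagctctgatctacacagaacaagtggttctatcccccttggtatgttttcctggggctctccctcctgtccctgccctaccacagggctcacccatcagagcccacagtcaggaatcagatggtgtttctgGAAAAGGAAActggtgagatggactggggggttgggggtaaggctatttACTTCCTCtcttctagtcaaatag
Bst2: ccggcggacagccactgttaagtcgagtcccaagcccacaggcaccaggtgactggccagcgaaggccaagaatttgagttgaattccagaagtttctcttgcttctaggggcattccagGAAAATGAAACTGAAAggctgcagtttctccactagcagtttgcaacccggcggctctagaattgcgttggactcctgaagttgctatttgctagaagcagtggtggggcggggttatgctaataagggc
B2m: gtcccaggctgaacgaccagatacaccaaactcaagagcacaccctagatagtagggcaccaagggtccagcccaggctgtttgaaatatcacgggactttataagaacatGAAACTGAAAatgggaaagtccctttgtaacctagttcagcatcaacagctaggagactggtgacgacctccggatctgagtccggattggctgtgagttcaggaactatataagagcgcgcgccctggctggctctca
Cst7: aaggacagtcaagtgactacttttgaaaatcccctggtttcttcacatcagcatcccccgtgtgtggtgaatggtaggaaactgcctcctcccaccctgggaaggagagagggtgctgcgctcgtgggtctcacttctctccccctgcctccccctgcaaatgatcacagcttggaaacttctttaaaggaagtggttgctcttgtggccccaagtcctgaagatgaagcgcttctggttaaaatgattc

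Bst2, shown with overlapping elements, was at 5.81, 10.05 and 8.29 FPKM in the DKO libraries and 3.55, 2.54, 4.82 and 2.64 FPKM in the WT libraries (log2 change 1.05, SE 0.18, adjusted p = 2.98e-04). Of the whole interferon response list 23 of 28 tested members rose and 0 fell, with a median log2 change of 0.49. Irf8 rose from 1.39 ± 0.221 to 5.94 ± 0.797 FPKM, and the galectin-binding protein Lgals3bp changed by 1.78. Ifitm3, which blocks virus entry, was at 24.2, 33.8 and 27.6 FPKM in the DKO libraries and 11.9, 13.3, 16.2 and 11.2 FPKM in the WT libraries (log2 change 1.06, SE 0.13, adjusted p = 7.76e-06). The guanylate-binding protein Gbp2 changed by 0.81 and Ifi27 by 0.71. Against WT, DKO replicate 1 alone gave 8 rises in the list, replicate 2 alone 23 and replicate 3 alone 15, and without replicate 2 17 rose. The median of the list, 0.49, lay between that of all genes, 0.06, and that of the microglial state genes.

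Lysosomal proteases, hydrolases and lipid genes rose along with the phagocyte receptors. Of the cathepsins and cystatins 14 of 16 rose and none fell. Ctsd, the main aspartic protease of lysosomes, was at 551, 558 and 439.9 FPKM in the DKO libraries and 186, 181, 180.4 and 177 FPKM in the WT libraries (log2 change 1.50, SE 0.08, adjusted p = 9.15e-10). Cst3, the secreted cystatin C, rose from 948 ± 45.7 to 1882 ± 76.7 FPKM. Of 40 lysosomal hydrolases and membrane proteins 31 rose and 2 fell, with a median of 0.35. After rescaling by median-of-ratios 27 rose. Npc2, which hands cholesterol out of the lysosome, was at 34.5, 33.1 and 31.2 FPKM in the DKO libraries and 16.6, 16.8, 16.9 and 15.3 FPKM in the WT libraries (log2 change 0.96, SE 0.04, adjusted p = 4.62e-11). Hexa and Man2b1, hydrolases of gangliosides and of glycoprotein sugars, changed by 1.17 and 0.77. The falls were small, in the proton pump subunit Atp6v1h (log2 change -0.17, SE 0.05, adjusted p = 0.00951) and the sulfatase Ids (log2 change -0.11, SE 0.04, adjusted p = 0.0408; not called without DKO replicates 1 or 3 or WT replicates 1, 3 or 4, adjusted p from 0.0524 to 0.112). In cholesterol synthesis and transport 22 of 41 tested members rose and 1 fell, with a median log2 change of 0.24. Besides Apoe and Npc2, the exporter Abca1 rose from 4.197 ± 0.441 to 9.27 ± 1.16 FPKM, the lipase Lpl changed by 0.67, and Mylip, which marks LDL receptors for degradation, by 0.65. Abcg1 was the member that fell (log2 change -0.11, SE 0.04, adjusted p = 0.0456; not called without DKO replicates 2 or 3 or WT replicates 2, 3 or 4, adjusted p from 0.0628 to 0.150). DKO replicate 2 alone lowered the count of rises in the cholesterol list by more than 1.5 times. With it the median log2 change of the list was 0.10, against 0.29 and 0.22 with replicates 1 and 3 alone. In iron handling 7 of 14 tested members rose and 1 fell, with a median log2 change of 0.21: Ftl1, the light chain of ferritin, was at 421, 379 and 442 FPKM in the DKO libraries and 239, 247, 237 and 210.1 FPKM in the WT libraries (log2 change 0.83, SE 0.06, adjusted p = 5.36e-08). Tfrc, the transferrin receptor, fell (log2 change -0.40, SE 0.05, adjusted p = 2.49e-05).

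Reactive astrocyte genes rose in 17 of 27 cases and fell in none. Gfap, the intermediate filament of astrocytes, was at 289, 349 and 288 FPKM in the DKO libraries and 27.6, 21.9, 30.4 and 22.998 FPKM in the WT libraries (log2 change 3.54, SE 0.11, adjusted p = 9.18e-13). Serpina3n, a secreted inhibitor of serine proteases, was at 47.7, 41.9 and 47.2 FPKM in the DKO libraries and 6.57, 8.22, 6.72 and 7.22 FPKM in the WT libraries (log2 change 2.51, SE 0.10, adjusted p = 1.11e-11). The asparaginase Aspg, the galactosyltransferase Ggta1 and the hyaluronan receptor Cd44 changed by 1.81, 1.30 and 1.03. Among general astrocyte markers the counts were 18 of 26 rising, 1 falling and a median of 0.28. Their summed level was 2927 to 3081 FPKM in DKO and 2340.0 to 2685 in WT. Kcnj10, the potassium channel Kir4.1 of astrocyte endfeet, was at 94.3, 91.4 and 93.6 FPKM in the DKO libraries and 45.9, 40.98, 39.9 and 38.02 FPKM in the WT libraries (log2 change 1.16, SE 0.06, adjusted p = 1.57e-10). Aqp4, the water channel of the endfeet, was at 22.3, 31.6 and 25.1 FPKM in the DKO libraries and 16.6, 14.1, 16.4 and 15.6 FPKM in the WT libraries (log2 change 0.70, SE 0.09, adjusted p = 1.27e-05). Mlc1 and Ntsr2, other genes typical of astrocytes, changed by 0.65 and 0.67. Mfge8, a bridge between dying cells and phagocytes, fell (log2 change -0.34, SE 0.07, adjusted p = 7.19e-04).

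Oligodendrocyte genes rose in 16 of 31 cases and fell in 1, with a median of 0.25. DKO replicate 2 alone lowered the count of rises past the limit set for reporting. With it the median log2 change of the list was 0.10, against 0.27 and 0.34 with replicates 1 and 3 alone. The rises were in the iron carrier Trf (log2 change 0.82, SE 0.08, adjusted p = 9.32e-07), the cytokine Il33 (0.63), the gap junction gene Gjb1 (0.59) and the acetylaspartate-cleaving enzyme Aspa (0.46). The main myelin genes did not pass the test, with Mbp at 299.6, 267 and 299 FPKM in the DKO libraries and 311, 304, 301 and 293 FPKM in the WT libraries. Of 14 precursor genes 2 rose. Of the 33 genes of endothelium and pericytes 7 rose and 3 fell (5 falls after rescaling, 11 rises without DKO replicate 1, 1 fall in DKO replicate 2 alone), shares of no more than those over all genes. Cldn5, the tight junction claudin, was at 21.3, 20.96 and 32.9 FPKM in the DKO libraries and 17.5, 18.4, 14.9 and 14.6 FPKM in the WT libraries (log2 change 0.56, SE 0.13, adjusted p = 0.00343), with DKO replicate 3 above replicates 1 and 2. Vwf, a clotting factor of endothelium, fell (log2 change -0.59, SE 0.20, adjusted p = 0.0285; not called without DKO replicates 1 or 3 or WT replicates 1, 2 or 3, adjusted p from 0.0519 to 0.199), as did the flow-responsive factors Klf2 (log2 change -0.42, SE 0.12, adjusted p = 0.0121; not called without DKO replicate 3, adjusted p = 0.0631) and Klf4 (log2 change -0.56, SE 0.09, adjusted p = 1.49e-04).

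The largest falls were smaller than the largest rises. After Psen2 the largest was in Frzb, a secreted Wnt antagonist, which was at 3.999, 3.72 and 2.15 FPKM in the DKO libraries and 9.71, 10.5, 9.35 and 8.73 FPKM in the WT libraries (log2 change -1.33, SE 0.13, adjusted p = 7.68e-07). Rapgef4, the cAMP-activated exchange factor Epac2, was at 52.8, 54.4 and 50.02 FPKM in the DKO libraries and 112, 116, 101 and 103 FPKM in the WT libraries (log2 change -1.03, SE 0.06, adjusted p = 5.76e-10). Lamp5, a membrane protein of cortical interneurons and upper-layer neurons, was at 53.5, 46.7 and 39.9 FPKM in the DKO libraries and 95.2, 104, 95.4 and 87.9 FPKM in the WT libraries (log2 change -1.02, SE 0.11, adjusted p = 2.04e-06). In both genes every DKO library lay well below every WT library. Bok, of the BCL2 family, fell from 31.03 ± 1.92 to 14.3 ± 1.796 FPKM (log2 change -1.07, SE 0.08, adjusted p = 3.47e-08). Plk5, a kinase-like protein of neurons, fell from 5.84 ± 0.584 to 2.302 ± 0.350 FPKM (log2 change -1.05, SE 0.12, adjusted p = 5.82e-06). Ddit4l, an inhibitor of mTORC1, was at 4.23, 4.39 and 4.07 FPKM in the DKO libraries and 10.5, 10.7, 9.46 and 9.19 FPKM in the WT libraries (log2 change -1.07, SE 0.08, adjusted p = 3.47e-08). The potassium channel Kcnh5, the synaptic organiser Cbln4, the neuropeptide Cort and the secreted protein Scube1 had log2 changes of -0.97, -0.96, -0.87 and -0.85. Kirrel2, an adhesion protein, Olfr78, an olfactory-type receptor, and Hjurp, a chaperone of centromeric histone, completed the list with -0.84, -0.84 and -0.84. Olfr78 was at 0.160, 0.671 and 0.214 FPKM in the DKO libraries and 1.55, 1.598, 1.41 and 1.02 FPKM in the WT libraries, values at which few reads decide the change.

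Postsynaptic scaffolds and calcium/calmodulin-dependent kinases were the neuronal list with the highest share of falls among the lists plotted. Of 33 members 25 fell and 2 rose, with a median of -0.23. In DKO replicate 2 alone 16 were called lower. Camk4, a kinase of neuronal nuclei, was at 16.7, 16.2 and 14.96 FPKM in the DKO libraries and 25.8, 25.1, 26.5 and 26.5 FPKM in the WT libraries (log2 change -0.67, SE 0.05, adjusted p = 3.67e-08). Camkk2, the kinase that activates it, was at 28.6, 29.8 and 23.4 FPKM in the DKO libraries and 45.2, 46.2, 45.7 and 45.9 FPKM in the WT libraries (log2 change -0.73, SE 0.06, adjusted p = 1.41e-07). Dlgap3, a scaffold of excitatory synapses, the CaMKII inhibitor Camk2n1 and the calcineurin subunit Ppp3ca changed by -0.44, -0.57 and -0.39 on the log2 scale. Homer3 and Camk2d were the members that rose, by 0.44 and 0.27. Of the ionotropic glutamate receptor genes 6 of 25 fell and 6 rose, and after rescaling 8 fell and 4 rose. Grin1, the obligate NMDA receptor subunit, fell (log2 change -0.29, SE 0.04, adjusted p = 8.59e-05), as did the auxiliary AMPA receptor subunits Cacng3 (log2 change -0.53, SE 0.07, adjusted p = 1.24e-05) and Cnih3 (log2 change -0.43, SE 0.04, adjusted p = 1.71e-06). Grin2d, an NMDA receptor subunit of interneurons, rose (log2 change 0.42, SE 0.07, adjusted p = 2.38e-04), as did the kainate receptor subunit Grik1 (log2 change 0.35, SE 0.07, adjusted p = 7.16e-04). Of 7 metabotropic receptors 4 fell and 1 rose (2 falls without DKO replicate 3, 2 falls without WT replicate 4, 1 fall in DKO replicate 2 alone). Grm2, an inhibitory presynaptic receptor, was at 12.2, 14.1 and 13.5 FPKM in the DKO libraries and 21.8, 24.2, 23.8 and 24.4 FPKM in the WT libraries (log2 change -0.78, SE 0.07, adjusted p = 3.28e-07).

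On the presynaptic side 17 of 41 genes fell and 6 rose (3 rises after rescaling, 3 rises without DKO replicate 1, 2 rises and 10 falls in DKO replicate 2 alone). The SNARE Stx1a was at 101, 103 and 90.9 FPKM in the DKO libraries and 144, 153, 146 and 145 FPKM in the WT libraries (log2 change -0.58, SE 0.04, adjusted p = 5.22e-08). The release regulator Cplx2 fell by 0.38 on the log2 scale and the active zone scaffold Rims1 by 0.63. Syn2, a synapsin, rose (log2 change 0.27, SE 0.04, adjusted p = 1.07e-04). Of 14 genes of GABA-A receptors and their anchoring 9 fell and 2 rose (4 falls in DKO replicate 2 alone). Gabra3, an alpha subunit, fell from 57.04 ± 0.851 to 46.05 ± 1.597 FPKM (log2 change -0.30, SE 0.04, adjusted p = 1.32e-05). Synaptic adhesion genes fell in 17 of 37 cases and rose in 2 (7 falls in DKO replicate 2 alone). Cbln2, a secreted partner of neurexins, was at 7.45, 8.98 and 8.32 FPKM in the DKO libraries and 16.2, 14.04, 15.2 and 14.6 FPKM in the WT libraries (log2 change -0.79, SE 0.08, adjusted p = 5.42e-07), and Cbln4, of the same family, at 1.96, 1.56 and 2.35 FPKM in the DKO libraries and 4.61, 4.83, 5.5001 and 4.01 FPKM in the WT libraries. The receptor Slitrk1 and the calsyntenin Clstn1 changed by -0.37 and -0.26.

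The potassium channel list and the sodium and calcium channel list each had more falls than rises. Of 63 potassium channel genes 25 fell and 8 rose (5 rises in DKO replicate 2 alone). Kcnh3, a channel of forebrain neurons, was at 27.3, 25.1 and 24.7 FPKM in the DKO libraries and 39.6, 41.9, 40.03 and 40.6 FPKM in the WT libraries (log2 change -0.64, SE 0.04, adjusted p = 3.00e-09). The log2 changes were -0.70 for Kcns1, -0.52 for Kcnj3, -0.64 for Kcnk4 and -0.76 for Kcng2. Kcnk6, a leak channel, rose (log2 change 0.53, SE 0.10, adjusted p = 5.46e-04), as did Kcna6 (log2 change 0.30, SE 0.04, adjusted p = 1.47e-05). Of 35 sodium and calcium channel genes 17 fell and 5 rose (2 rises after rescaling, 2 rises without DKO replicate 2, 2 rises without DKO replicate 3, 3 rises without WT replicate 2, 2 rises in DKO replicate 2 alone). Atp2b2, a calcium pump of the plasma membrane, was at 66.7, 73.1 and 59.6 FPKM in the DKO libraries and 103, 103, 99.2 and 102 FPKM in the WT libraries (log2 change -0.61, SE 0.06, adjusted p = 4.93e-07). Scn1a, the sodium channel of fast-spiking interneurons and axons, fell from 25.8 ± 1.39 to 18.1 ± 0.604 FPKM (log2 change -0.48, SE 0.07, adjusted p = 3.88e-05). The T-type calcium channel Cacna1i and the auxiliary subunit Cacnb3 changed by -0.63 and -0.44. Cacna1d, an L-type channel, rose (log2 change 0.36, SE 0.05, adjusted p = 8.24e-05).

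The clustered protocadherins, whose many isoforms give single neurons a surface identity, fell in 20 of 45 tested cases and rose in 2 (11 falls without DKO replicate 1, 9 falls in DKO replicate 2 alone). The median was -0.23 and the summed level was 118 to 139 FPKM in DKO and 151 to 162 in WT. Pcdhga3 was at 1.97, 2.24 and 2.24 FPKM in the DKO libraries and 3.51, 3.23, 3.69 and 3.72 FPKM in the WT libraries (log2 change -0.53, SE 0.06, adjusted p = 7.80e-06), and Pcdhb6 at 0.892, 0.804 and 0.670 FPKM in the DKO libraries and 1.47, 1.57, 1.62 and 1.27 FPKM in the WT libraries (log2 change -0.47, SE 0.08, adjusted p = 3.33e-04). The members that rose were Pcdhgc3 and Pcdhgc4, by 0.26 and 0.37, of which Pcdhgc3 was not called without DKO replicates 2 or 3 or WT replicates 2, 3 or 4, adjusted p from 0.0623 to 0.150. These genes share constant exons and similar sequences, so their reads may be divided uncertainly. Among cytoskeletal genes of axons 12 of 34 fell and 2 rose (4 falls in DKO replicate 2 alone). Nefm and Nefl, the medium and light neurofilament chains, were lower: Nefm was at 61.6, 52.97 and 42.1 FPKM in the DKO libraries and 84.9, 92.96, 88.9 and 82.03 FPKM in the WT libraries (log2 change -0.74, SE 0.11, adjusted p = 6.22e-05), and Nefl changed by -0.44. Map1a, a microtubule-associated protein of dendrites, fell from 179.8 ± 7.74 to 125 ± 13.1 FPKM (log2 change -0.52, SE 0.05, adjusted p = 1.10e-06), and Cdk5r2, an activator of CDK5, changed by -0.44. Tubb6, a beta tubulin, rose (log2 change 0.62, SE 0.14, adjusted p = 0.00189).

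Markers of excitatory neurons and cortical layers were divided. Of 39 such genes 13 fell and 7 rose, or 6 and 6 when DKO replicate 2 alone was used. Slc17a7, the vesicular glutamate transporter of cortical excitatory neurons, was at 569, 565 and 556 FPKM in the DKO libraries and 530.1, 530.3, 522 and 542 FPKM in the WT libraries, with an interval of 0.01 to 0.16 for the log2 change. Limma on the FPKM values did not call it, and voom on recovered reads called it higher (log2 change 0.087, adjusted p = 0.0333). Neurod6, a transcription factor of these neurons, was at 27.8, 28.3 and 26.97 FPKM in the DKO libraries and 45.6, 40.8, 46.4 and 48.2 FPKM in the WT libraries (log2 change -0.69, SE 0.07, adjusted p = 2.28e-06). Calb1 and Rspo1 fell by 0.53 and 0.74 on the log2 scale. Rprm, a cell cycle gene of deep layers, rose (log2 change 0.62, SE 0.06, adjusted p = 4.59e-07), and Wfs1, of the endoplasmic reticulum, changed by 0.73. Of the general neuron markers 6 of 11 fell, among them Rbfox3, which encodes the nuclear protein NeuN (log2 change -0.39, SE 0.04, adjusted p = 7.46e-07), and 1 rose. Inhibitory neuron genes rose more often than they fell, in 11 of 27 cases against 2 (7 rises without DKO replicate 3, 3 rises in DKO replicate 2 alone). Replicates 1 and 3, each alone, gave 5 and 13 rises. Vip, the peptide of a class of disinhibitory interneurons, was at 59.3, 54.7 and 72.4 FPKM in the DKO libraries and 30.05, 30.2, 26.96 and 28.5 FPKM in the WT libraries (log2 change 1.07, SE 0.08, adjusted p = 3.02e-08). The interneuron transcription factors Dlx1 and Dlx2 changed by 0.54 and 0.53, and the stress peptide Crh by 0.94. Cort, a somatostatin-like peptide of interneurons, fell, at 3.96, 2.28 and 2.93 FPKM in the DKO libraries and 6.05, 6.02, 6.71 and 6.39 FPKM in the WT libraries. Among neuropeptide genes 10 of 22 tested members rose and 2 fell, with a median log2 change of 0.18. Nptx2, a pentraxin that clusters AMPA receptors on interneurons, was at 59.6, 55.7 and 66.2 FPKM in the DKO libraries and 14.7, 18.2, 16.9 and 19.5 FPKM in the WT libraries (log2 change 1.75, SE 0.07, adjusted p = 1.90e-11). The peptide precursors Pdyn, Tac2 and Chgb changed by 0.70, 0.79 and 0.49, while Crhbp, which binds the peptide of Crh, fell (log2 change -0.45, SE 0.13, adjusted p = 0.0120; not called without DKO replicate 2, adjusted p = 0.0680).

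Immediate early genes, which neurons switch on within minutes of activity, went both ways. Of 50, 14 rose and 14 fell, and after rescaling 13 and 17 (7 falls without DKO replicate 3, 22 falls without WT replicate 1). Over all genes 24.6% rose and 11.0% fell, so equal counts were a lean to falls beside them. The median log2 change of the list was -0.16 against 0.06 over all genes, and 56.0% were called against 35.7%. DKO replicate 2 alone lowered both counts. With it the median was -0.17, against -0.059 and -0.245 with replicates 1 and 3 alone. Egr1, a zinc finger factor, was at 60.4, 46.3 and 40.8 FPKM in the DKO libraries and 94.9, 85.2, 131 and 127 FPKM in the WT libraries (log2 change -1.13, SE 0.17, adjusted p = 8.93e-05). Homer1, Dusp14 and Egr3 fell by 0.41, 0.37 and 0.42. Jun, of the AP-1 factors, was at 29.8, 23.5 and 31.1 FPKM in the DKO libraries and 10.8, 12.9, 12.4 and 14.1 FPKM in the WT libraries (log2 change 1.10, SE 0.08, adjusted p = 3.47e-08). Atf3, a factor induced by injury, was at 1.58, 2.08 and 2.302 FPKM in the DKO libraries and 0.345, 0.396, 0.644 and 0.486 FPKM in the WT libraries (log2 change 1.02, SE 0.10, adjusted p = 4.27e-07). Rgs2 and the secretogranin Scg2 rose by 0.66 and 0.61. In water the same list had 13 rises and 30 falls, against 14 and 14 with nicotine. The test of the difference between the drinking groups called 0 of the 50 by limma and 0 by voom, and at an unadjusted p under 0.05 the effect was higher under nicotine for 17 and lower for 3. Clock genes fell in 10 of 21 cases and rose in none (6 falls without DKO replicate 3, 5 falls in DKO replicate 2 alone). Hlf and Ciart, an output factor and a repressor of the clock, had log2 changes of -0.60 and -0.65. Bhlhe40, a repressor driven by activity and the clock, was at 40.2, 45.6 and 36.1 FPKM in the DKO libraries and 62.9, 61.8, 68.8 and 70.02 FPKM in the WT libraries (log2 change -0.69, SE 0.07, adjusted p = 1.29e-06). Cry1 and Cry2, the cryptochromes, fell by 0.51 and 0.24. The hour at which tissue was taken was not given in the labels used here.

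The receptors on which nicotine acts were measured with their modulators. Of 18 tested genes of nicotinic and muscarinic receptors and their modulators 6 fell and 2 rose (3 falls in DKO replicate 2 alone). Chrna4, which with Chrnb2 forms the main high-affinity nicotinic receptor, was at 9.12, 8.76 and 8.89 FPKM in the DKO libraries and 13.2, 10.8, 11.7 and 13.8 FPKM in the WT libraries (log2 change -0.42, SE 0.07, adjusted p = 3.06e-04). Chrnb2 was at 11.5, 12.01 and 12.1 FPKM in the DKO libraries and 12.6, 11.4, 12.4 and 13.3 FPKM in the WT libraries, with an interval of -0.17 to 0.06. Chrna7, the subunit of homomeric receptors, had an interval of -0.38 to -0.02 and was not called. After rescaling limma called it lower (log2 change -0.26, adjusted p = 0.0301). Lynx1, a membrane-tethered brake on nicotinic receptors, was at 96.03, 96.5 and 85.6 FPKM in the DKO libraries and 121, 123, 117 and 116 FPKM in the WT libraries (log2 change -0.36, SE 0.06, adjusted p = 2.30e-04). The muscarinic receptors Chrm1 and Chrm3 fell by 0.43 and 0.40. Bche, butyrylcholinesterase, was at 1.31, 3.28 and 4.15 FPKM in the DKO libraries and 1.39, 0.897, 0.995 and 0.875 FPKM in the WT libraries (log2 change 0.87, SE 0.20, adjusted p = 0.00275), and Ache, acetylcholinesterase, rose as well (log2 change 0.30, SE 0.07, adjusted p = 0.00239). In the list of serotonin, adrenergic and dopamine receptors 7 of 19 fell and 3 rose (1 rise and 3 falls in DKO replicate 2 alone). Among them Htr2a (log2 change -0.55, SE 0.11, adjusted p = 0.00136) and Htr1a (log2 change -0.45, SE 0.06, adjusted p = 1.74e-05) fell, and Adra1b rose (log2 change 0.42, SE 0.05, adjusted p = 1.38e-05).

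The noncatalytic subunits of gamma-secretase were measured next. Ncstn, the substrate-binding subunit nicastrin, fell from 24.6 ± 1.54 to 21.9 ± 1.63 FPKM (log2 change -0.16, SE 0.06, adjusted p = 0.0377; not called without DKO replicates 1 or 3 or WT replicates 1, 3 or 4, adjusted p from 0.0524 to 0.218). Aph1a, Aph1b, Aph1c and Psenen, which encode scaffold and accessory subunits, were called by neither limma nor voom, with intervals of -0.21 to 0.16, -0.19 to 0.06, -0.27 to 0.10 and -0.01 to 0.36 for the log2 change. Of the 13 tested genes of the amyloid precursor family and its secretases 2 rose and 1 fell (5 falls after rescaling). That is 23.1% called, below the 35.7% over all genes. The rises were in the proteases Adam17 and Adam10, by 0.45 and 0.20. In the Notch pathway, whose receptors gamma-secretase releases, 10 of 25 genes rose and 1 fell (5 rises without DKO replicate 3, 4 rises in DKO replicate 2 alone). Hey1, a target gene of Notch, was at 18.5, 22.1 and 23.8 FPKM in the DKO libraries and 25.4, 26.7, 24.6 and 24.5 FPKM in the WT libraries (log2 change -0.23, SE 0.07, adjusted p = 0.0109; not called without DKO replicate 1, adjusted p = 0.0774). Maml2, a coactivator, Dtx3, a ubiquitin ligase, and the receptor Notch2 changed by 0.57, 0.25 and 0.45. In the Wnt pathway 7 of 29 tested members rose and 3 fell, with a median log2 change of 0.07 (5 falls after rescaling, 4 rises without DKO replicate 3, 4 rises in DKO replicate 2 alone). The share of the Wnt list that was called, 34.5%, was near the 35.7% over all genes, whose median was 0.06. Beside the fall of Frzb, the antagonists Sfrp5 and Sfrp1 rose (log2 change 0.99, SE 0.11, adjusted p = 3.76e-06 and log2 change 0.53, SE 0.11, adjusted p = 0.00138), and the receptor Fzd7 changed by 0.63. Of the apoptosis genes 14 of 27 rose and 2 fell (4 rises in DKO replicate 2 alone). Bcl2a1b, a survival gene of blood cells, was at 5.78, 5.79 and 6.66 FPKM in the DKO libraries and 0.344, 0.804, 2.102 and 0.909 FPKM in the WT libraries (log2 change 1.86, SE 0.20, adjusted p = 2.20e-06); it has near-identical copies. Bcl2l11, which encodes BIM, and Casp8 changed by 0.51 and 0.60.

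Housekeeping lists moved little and depended on the scaling. Of 55 cytosolic ribosomal protein genes 21 rose and 1 fell, with a median of 0.15 (11 rises after rescaling, 13 rises without DKO replicate 1, 11 rises without DKO replicate 3, 2 rises in DKO replicate 2 alone). Rpl10 was at 229, 214 and 226 FPKM in the DKO libraries and 176, 182, 172 and 163 FPKM in the WT libraries (log2 change 0.36, SE 0.05, adjusted p = 1.86e-05). Rpsa, which has many pseudogene copies, was the member that fell (log2 change -0.68, SE 0.06, adjusted p = 8.79e-08). Of 60 genes of oxidative phosphorylation 5 rose and 3 fell (2 rises and 14 falls after rescaling, 1 rise and 1 fall without DKO replicate 1, 10 rises and 0 falls without DKO replicate 2, 2 rises without DKO replicate 3, 3 rises without WT replicate 1, 9 rises and 1 fall without WT replicate 2, 1 fall without WT replicate 3, 0 rises in DKO replicate 2 alone). Of 34 proteasome genes 6 rose and 2 fell (2 rises and 6 falls after rescaling, 3 rises without DKO replicate 1, 1 rise without DKO replicate 3, 2 rises without WT replicate 4, 0 rises in DKO replicate 2 alone). Stress genes went both ways. Hmox1, the haem oxygenase, rose (log2 change 0.79, SE 0.08, adjusted p = 1.58e-06), as did Cdkn1a, the cell cycle inhibitor p21 (log2 change 0.54, SE 0.08, adjusted p = 9.21e-05), and Atf4, a factor of the integrated stress response, fell (log2 change -0.39, SE 0.04, adjusted p = 6.11e-07). Of 22 genes of the unfolded protein response 5 rose and 1 fell (3 rises after rescaling, 2 rises in DKO replicate 2 alone), led by Eif2ak3 (log2 change 0.41, SE 0.06, adjusted p = 3.28e-05). Of 25 heat shock genes 5 rose and 2 fell (5 falls after rescaling), led by Hspb6 (log2 change 0.58, SE 0.08, adjusted p = 3.74e-05). The shares called were 27.3% for unfolded protein response genes and 28.0% for heat shock genes, below the 35.7% over all genes. The metallothioneins Mt1 and Mt2, which bind zinc and respond to glucocorticoids, changed by 0.69 and 0.77.

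The same contrast in water shows where the nicotine result stands apart. In water 4836 genes were called, with 3252 rises (25.5%) and 1584 falls (12.4%). Of the rises under nicotine 2303 were also rises in water (73.5% of the nicotine rises, 70.8% of the water rises), and 1074 falls were shared (76.4% and 67.8%). The water groups differ from the nicotine groups in the Y-linked genes, which all 8 water libraries expressed, so the drug and this split cannot be told apart for WT. The test of the difference between the 2 genotype effects, nicotine minus water, called 2 genes (0.0157%), and 878 genes had an unadjusted p under 0.05.

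**Figure D5:**
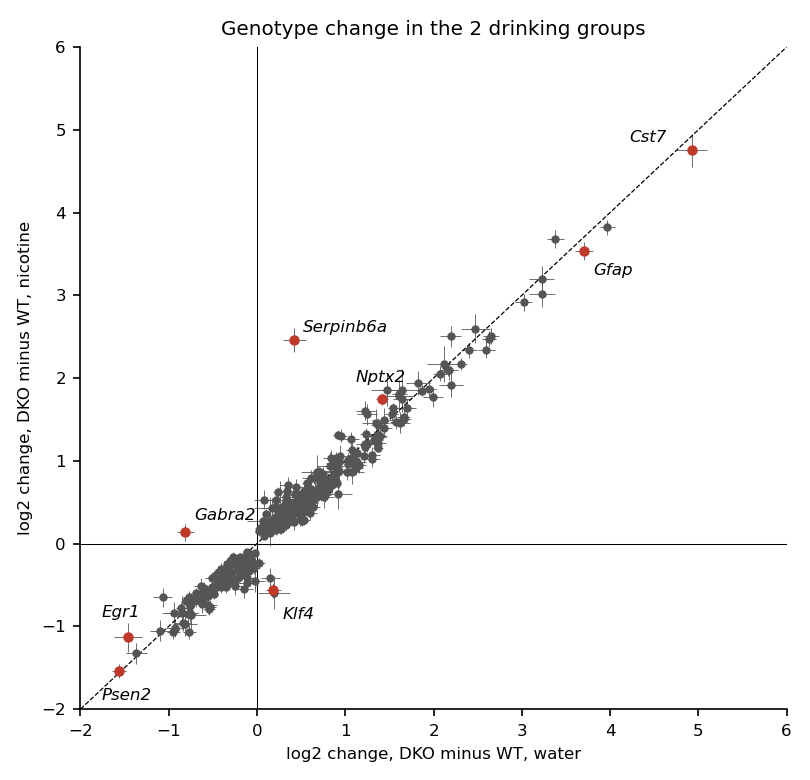
Log2 change (DKO minus WT) of the reported genes named by the rule under nicotine against water, with bars of 1 SE and the line of equality dashed. Most genes lie near the line; Serpinb6a and Gabra2, the 2 genes called in the test of the difference, lie off it.

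Serpinb6a, an intracellular serine protease inhibitor (gene 20719, chromosome 13, 33917918 to 34002794), was at 15.05, 16.02 and 20.3 FPKM in the DKO libraries and 2.096, 2.23, 2.71 and 2.08 FPKM in the WT libraries (log2 change 2.46, SE 0.15, adjusted p = 2.10e-09). In water it was at 18.8, 18.6, 16.1 and 16.4 FPKM in DKO and 15.7, 13.7, 14.1 and 8.55 FPKM in WT (log2 change 0.42, SE 0.13, adjusted p = 0.0199). The WT nicotine group was thus the low group of the 4, and the difference between the effects was 2.03 (SE 0.20, adjusted p = 1.80e-04). DKO replicate 2, which matched WT in the Y-linked genes, was at 16.02 FPKM. Gabra2, a GABA-A receptor subunit (gene 14395, chromosome 5, 70958392 to 71095849), was at 10.8, 11.6 and 9.69 FPKM in the DKO libraries and 9.78, 9.72, 9.69 and 9.32 FPKM in the WT libraries, without a call. Its WT water libraries were at 17.6, 17.6, 26.8 and 17.8 FPKM and its DKO water libraries at 11.3, 10.1, 11.1 and 10.6. Here the WT water group was the high group, and the difference was 0.95 (SE 0.15, adjusted p = 0.0407). Serpinb6a was called in this test in all 24 settings tried, and Gabra2 in 10 of 24. The next genes by p did not pass. Klf4, which fell under nicotine, was at 3.62, 3.62, 3.802 and 4.37 FPKM in WT nicotine and 2.28, 1.98, 1.59 and 1.803 FPKM in WT water, a difference between the effects of -0.75 (SE 0.12, adjusted p = 0.0625). Dpm3, a subunit of dolichol-phosphate mannose synthase, was at 20.2, 19.6 and 20.7 FPKM in the DKO libraries and 7.16, 7.86, 7.73 and 7.23 FPKM in the WT libraries (log2 change 1.32, SE 0.05, adjusted p = 1.64e-11), with a difference of 0.41 (SE 0.07, adjusted p = 0.116). For Rprm the difference was 0.39 (SE 0.08, adjusted p = 0.341).

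Markers of neighbouring regions were measured to check the dissection. Of 15 striatal genes none rose and 1 fell, while in water 7 rose. The test of the difference between the drinking groups called 0 of the 15 by limma and 0 by voom. At an unadjusted p of limma under 0.05 the effect was lower under nicotine for 5 and higher for 0. Penk, the enkephalin precursor of striatal neurons, ranged from 32.6 to 67.2 FPKM in DKO and from 40.3 to 72.0 in WT, and the groups overlapped. Ttr, the transthyretin of choroid plexus, was between 0.570 and 2.88 FPKM in all 7 libraries. Of the ependymal genes Foxj1, a factor for motile cilia, rose (log2 change 0.76, SE 0.11, adjusted p = 8.17e-05), as did Ccdc153 (log2 change 0.60, SE 0.18, adjusted p = 0.0161; not called without DKO replicates 1 or 3, adjusted p from 0.0757 to 0.116) and Rarres2 (log2 change 0.56, SE 0.13, adjusted p = 0.00285). The part of such material in other results was not tested.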

How the data were processed

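RNA-seq was carried out on prefrontal forebrain cortex. TRIzol was used for total RNA and the TruSeq Stranded mRNA LT kit for libraries, per the labels' protocols. The submitters' processing notes name the build GRCm38.p6. Aligner, counter and use of strand were not given in the sources used here, and overlapping or antisense genes cannot be separated. The authors deposited FPKM values per gene, 1 table per library. Each tested value was a whole multiple of the value of 1 read (100% within 0.02 reads), which gave the reads per library, 16334904 to 19469215 over the series. Names turned into dates were restored for 27 genes, and 21727 gene numbers matched RefSeq.

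Groups came from the labels. Values were log2(FPKM + 1) for genes that reached 1 FPKM in 3 or more of 15 libraries. All 15 libraries entered 1 limma fit (limma 3.58.1, R 4.3.3) with a mean per group, an intensity trend and no block, and p-values were adjusted by Benjamini-Hochberg within each of 3 comparisons. The code was tested on simulated data. Alternatives were another pseudocount, other filters, rescaling, no trend, voom on recovered reads, autosomal genes, a replicate block, the 7 nicotine libraries alone, leaving out each library and using each DKO nicotine library alone. Plots were made with matplotlib 3.10.9.

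Named genes were Psen2, the 15 largest rises and 15 largest falls among calls without overlap, up to 5 called members per direction of each of 66 lists, markers fixed per cell type, and the 5 genes with the smallest interaction p. Some genes the rule names are not reported here. The members and lists were chosen with earlier results of these data known. No label pairs DKO and WT libraries with the same number, and their deviations had no positive correlation, so the numbers were not taken as pairs. Use of each DKO nicotine library alone and of the 7 nicotine libraries alone for single genes and lists, and all alternatives for the water contrast, were added after the data were seen.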

Additional observations from a re-analysis of the deposited data

Results flagged for a closer look

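In groups of 4 libraries a library was marked where its gap to the next one took up more of the range of the group than Dixon's test allows at 95%, which chance gives in about 1 of 20 groups. Of the 253 named genes, 10 had such a library in the WT nicotine group. The highest library stood apart for Fgr (0.153 FPKM), Grin2d (2.31 FPKM), Lilrb4a (0.186 FPKM) and Ly86 (8.91 FPKM). The lowest stood apart for Ccl4 (0.0633 FPKM), Cd180 (0.690 FPKM), Eif2s3x (25.8 FPKM), Kcng2 (2.80 FPKM), Klf2 (7.66 FPKM) and Lag3 (3.44 FPKM). The groups overlapped in Klf2 and in none of the other 9.

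Serpinb6a and Gabra2 had genotype effects that differed between nicotine and water by the test of the difference itself. For Serpinb6a the effect was larger by 2.03 on the log2 scale under nicotine, and the group apart was WT nicotine, low in 4 of 4 libraries. For Gabra2 the effect was higher by 0.95, and the group apart was WT water, high in 4 of 4 libraries. The cause was not tested.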

How the results depend on the processing

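Of the 253 genes named, 239 were called, and 225 of these were called in every setting except the single-library ones. The 14 others lost the call in at least 1 setting, most often small changes such as those of Ids, Itgav and Ncstn. With DKO replicate 2 alone, 30 named genes lost the call and Vwf changed sign (0.0148 on the log2 scale, without a call). With the replicate number as a block (replicate block), 3980 genes were called, 2727 higher and 1253 lower. The deviations of equal numbers had correlations of -0.214, -0.169 and -0.041. The labels do not say whether equal numbers pair mice, and these correlations cannot decide it.

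Counts that moved by more than 1.5 times were these. DKO replicate 1 alone gave 2652 calls (1807 higher, 845 lower) and replicate 2 alone 2080 (1410 higher, 670 lower). A minimum of 5 FPKM gave 2063 rises and 107 doubled genes, since fewer genes were tested. Rescaling gave 2217 falls. The count of changes of at least 2-fold was 427 (397 up, 30 down) with voom on recovered reads and 387 (360 up, 27 down) with a pseudocount of 0.1, both of which shrink low genes less. Leaving out each nicotine library gave 3442 to 4432 calls, 2373 to 3077 rises, 1069 to 1355 falls, 167 to 198 changes of at least 2-fold, 157 to 184 doubled and 10 to 14 halved genes. For the difference between drinking groups 1 gene was called with no filter, with no intensity trend and with the replicate block, and 1 to 6 when a library was left out; without DKO nicotine replicate 2 the 6 were Serpinb6a, 4 Y-linked genes and Eif2s3x. Depth limits genes near 1 FPKM, where the median gene has 67.9 reads.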

Other observations

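Other gene lists were counted as well. Of 29 tested genes near risk variants of Alzheimer disease, 14 rose and 2 fell, and many are microglial. The clusterin gene Clu, which encodes a secreted chaperone, was at 551, 549.6 and 613 FPKM in the DKO libraries and 366, 351, 337 and 321 FPKM in the WT libraries (log2 change 0.73, SE 0.05, adjusted p = 2.15e-08). Grn, the precursor of progranulin, which is a growth factor of lysosomes, is on the lysosomal list and Abca1 on the cholesterol list. Ptk2b, a kinase of neurons and microglia, fell (log2 change -0.24, SE 0.04, adjusted p = 5.64e-05). In brain matrix genes 10 of 25 tested members rose and 1 fell, with a median log2 change of 0.15 (3 falls without DKO replicate 2). Col4a1 and Col4a2, the chains of basement membrane collagen, changed by 0.57 and 0.48. In cAMP signalling 9 of 34 genes rose and 10 fell (5 rises after rescaling, 6 falls without DKO replicate 3, 4 rises and 2 falls in DKO replicate 2 alone). Adcy7, an adenylate cyclase of immune cells, rose (log2 change 0.84, SE 0.08, adjusted p = 7.50e-07), and Rapgef4 fell as described. In axon guidance 13 of 62 genes rose and 13 fell (7 rises after rescaling, 8 falls without DKO replicate 1, 8 rises without DKO replicate 3, 7 rises and 2 falls in DKO replicate 2 alone). Sema4a and Plxnb2, a semaphorin and a plexin receptor, rose by 0.60 and 0.46, and Sema4f and Sema7a fell by 0.39 and 0.36 on the log2 scale. In glycolysis 10 of 29 rose and 1 fell (6 rises and 5 falls after rescaling, 6 rises without DKO replicate 2, 6 rises without WT replicate 4, 4 rises in DKO replicate 2 alone), with 37.9% called beside 35.7% over all genes. The rises were led by the hexokinases Hk2 (log2 change 0.62, SE 0.09, adjusted p = 6.42e-05) and Hk3 (log2 change 0.54, SE 0.08, adjusted p = 9.98e-05).

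Calls were counted by position. Within 5 Mb of Psen2 17 of 53 tested genes (32.1%) were called, and within 10 Mb 47 of 119 (39.5%), beside 35.7% over all genes. Over the autosomes and chromosome X the share ranged from 29.5% on chromosome 8 to 39.7% on chromosome 15, and all 4 tested genes of chromosome Y were called.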
